A study of Homo sapiens with 6 samples.

Results

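The genes described here take part in insulin and insulin-like growth factor (IGF) signaling or restrain it. Included are the receptors INSR, IGF1R and IGF2R, the adaptors IRS1, IRS2 and GRB10, and the forkhead factors FOXO1, FOXO3 and FOXO4. They are a set of pathway genes, matched by symbol, as 9 of the 63140 genes in the deposited tables, and all 9 were among the 14451 genes with enough reads to test. BT-549 is a human triple negative breast cancer line. Its cells, labelled wild type, were grown for 24 h in adipocyte-conditioned media (ACM, 3 cultures) or unconditioned medium (UCM, 3 cultures), and polyA RNA was sequenced. The comparison asked how gene expression in the cancer cells responded to what adipocytes release. ACM was medium with insulin and oleate that had been kept on differentiating OP9 cells, which are of mouse origin. The sample labels give ACM at 50%, whereas the study's supplementary methods call it undiluted for this experiment, and the formula of UCM is not given in the sources used here. The medium in which the line was maintained held 0.8 µg/mL insulin and 10% serum. By the study's supplementary methods, the medium put on the OP9 cells held far less serum. A difference between the groups therefore covers everything in which the media differed, and the part of insulin cannot be told apart from that of serum, oleate or adipocyte products.

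Insulin and IGF1 bind the tyrosine kinase receptors INSR and IGF1R, which phosphorylate the IRS adaptors and so recruit PI3K and activate AKT. AKT in turn phosphorylates the FOXO factors, which are then bound by 14-3-3 proteins and kept out of the nucleus. When insulin is low, FOXO factors enter the nucleus and switch on genes that include INSR and IRS2 themselves, so that transcripts of the pathway are part of its feedback.

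The libraries held 17135288 to 21053257 expected counts. Levels of a gene between libraries are given as CPM, which are counts scaled to library size. Between replicate libraries, chi-square per degree of freedom over genes was 2.32 for UCM replicates 2 and 3, 19.9 and 21.5 for either of these against UCM replicate 1, and 13.1 to 18.8 among the ACM libraries, so UCM replicate 1 stood apart from the other UCM libraries. Nothing in the labels says that the replicates were grown on separate days, so p-values measure the spread between these cultures only. The cells are labelled epithelial, but the summed level of 7 epithelial markers was 1.3 to 1.96 CPM in ACM and 1.71 to 2.9 CPM in UCM, ESRP1 was at 0 in every library, and EPCAM had 2 counts in all ACM libraries together and 0 in UCM. The 7 mesenchymal markers summed to 8150 to 8470 CPM in ACM and 7870 to 7900 CPM in UCM. Of 7 adipocyte markers, ADIPOQ, CIDEC and LEP were at 0 in every library, and the list summed to 2.08 to 3.1 CPM in ACM and 1.4 to 1.92 CPM in UCM, mostly from CFD. The 6 leukocyte and endothelial markers summed to 12.9 to 29.6 CPM in ACM and 5.86 to 7.11 CPM in UCM, mostly from CD68, a lysosomal membrane protein. The leukocyte marker PTPRC had 15 counts in ACM and 13 in UCM. The part of these markers in the results below was not tested.

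Levels of different genes were compared per length, as TPM, in which counts are divided by transcript length and then scaled to library size. IGF2R, which binds IGF2 and mannose 6-phosphate and carries both to lysosomes without a kinase of its own, stood far above the other members at 65.9 ± 10.1 TPM in UCM (SD, n = 3), higher than 81.5% of the genes tested. FOXO3 followed at 11.6 ± 0.437 TPM, IGF1R at 10.4 ± 2.26 TPM and GRB10 at 10.1 ± 0.833 TPM. The libraries of FOXO3 and IGF1R overlapped, as did those of IGF1R and GRB10. IRS1 lay below GRB10 in every UCM library at 7.31 ± 0.321 TPM, and INSR below IRS1 at 3.44 ± 0.801 TPM. The lowest were FOXO1 at 1.64 ± 0.2 TPM and IRS2 at 1.42 ± 0.06 TPM, which overlapped each other, and FOXO4 at 0.69 ± 0.347 TPM, which stood above only 6.19% of the tested genes. The receptor transcript of this line was therefore mostly IGF2R, with IGF1R above INSR in every library of both groups. In ACM the order began with IGF2R at 66.7 ± 5.54 TPM, IGF1R at 13.4 ± 2.6 TPM and GRB10 at 13.3 ± 1.9 TPM, and ended with IRS2 at 1.73 ± 0.362 TPM, FOXO1 at 1.33 ± 0.159 TPM and FOXO4 at 1.21 ± 0.463 TPM.

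**Figure D1:**
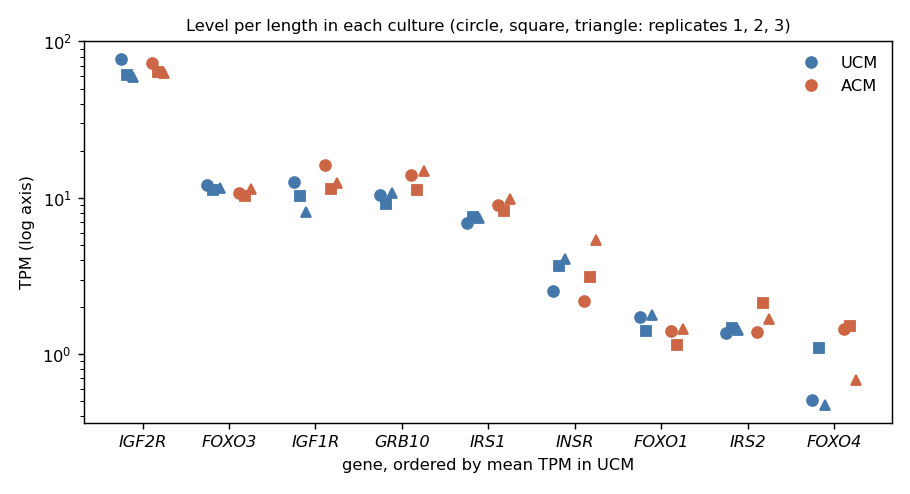
Level of each of the 9 genes in TPM (log axis) in the 3 ACM and the 3 UCM libraries. Points are libraries, and genes are ordered by their mean in UCM. IGF2R stood alone near the top, from 59.31 to 77.54 TPM, and FOXO4 had the lowest mean in both media.

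At an adjusted p of 0.05 or less in edgeR's quasi-likelihood test over all genes, 1 of the 9 members rose in ACM, GRB10, where 3.35% of all tested genes rose, and 0 fell, where 2.21% of all tested genes fell. At an unadjusted p of 0.05 or less, 3 were higher (11.9% of all tested genes) and 0 lower (1659 of the 14451 tested genes). At an adjusted p of 0.05 or less, DESeq2 called 1 member higher and 0 lower. Over all 13626 genes with an adjusted p from DESeq2, 726 were higher and 420 lower. The log2 fold change was above 0 for 8 of the 9 members and for 48.1% of all tested genes. The members' median was 0.25, beside -0.01 over all tested genes. All 3 ACM libraries were above all 3 UCM libraries for 4 members, IRS1, GRB10, FOXO3 and FOXO4, which held for 13.9% of all tested genes, and in none were they below, which held for 15.1%. The count of 1 became 0 without ACM replicate 1, ACM replicate 3, UCM replicate 2 or UCM replicate 3, and it became 3 without UCM replicate 1.

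**Figure D2:**
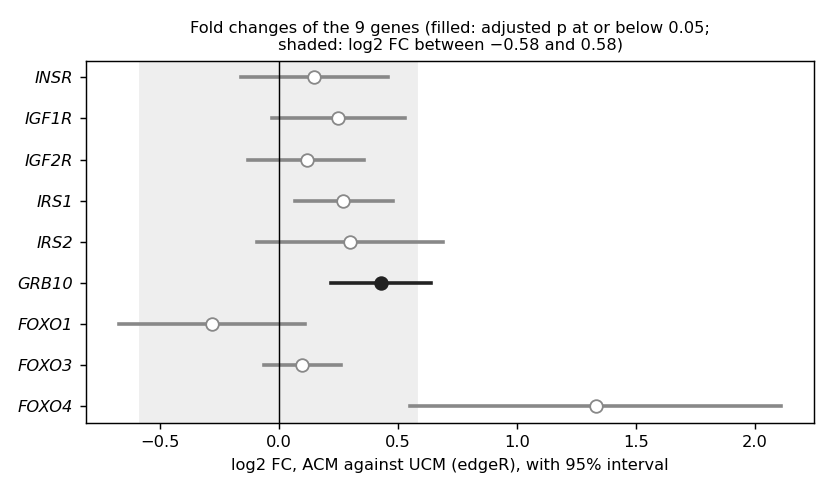
Log2 fold change of each member, ACM against UCM, from edgeR, with its 95% confidence interval as a bar. The interval left out 0 for IRS1, GRB10 and FOXO4, and FOXO1 was the only member with a negative estimate, at -0.28.

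GRB10 binds activated INSR and IGF1R and restrains their signaling. It had 31.6, 27.04 and 30.66 CPM in the ACM libraries and 21.84, 21.83 and 22.8 CPM in the UCM libraries. Every ACM library lay above every UCM library, and the UCM libraries were close to each other. GRB10 rose 1.34-fold, with a log2 fold change of 0.43 (SE 0.09, 95% confidence interval 0.22 to 0.64, adjusted p = 0.0309 from edgeR), on 391 to 665 expected counts a library. Its TPM was 13.91, 11.16 and 14.81 in ACM and 10.38, 9.11 and 10.68 in UCM, again without overlap. On the log2(TPM + 1) scale the difference was 0.36 with an adjusted p of 0.207 from limma. The adjusted p from edgeR was 0.0686 without ACM replicate 1, 0.0811 without ACM replicate 3, 0.139 without UCM replicate 2 and 0.0983 without UCM replicate 3, while the log2 fold change stayed between 0.39 and 0.49 whichever library was left out. GRB10 lies on the minus strand at chr7:50590063-50793462 (GRCh38), with 26 annotated transcripts, 15 of them protein coding. Among 13349 genes of at least 1 CPM, the genes whose centered log2 CPM over the 6 libraries was closest to that of GRB10 were TLE2 (root mean square difference 0.0552), GPRASP1 (0.0639) and ARHGAP45 (0.0639).

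The receptors did not pass the test. INSR, the insulin receptor, had 13.92, 14.93 and 10.98 CPM in ACM and 11.89, 11.29 and 12.71 CPM in UCM. These libraries overlapped, and ACM held both the highest and the lowest. INSR differed by a log2 fold change of 0.15 (SE 0.14, interval -0.16 to 0.46, adjusted p = 0.575 from edgeR). Its TPM ran from 2.18 to 5.34 within the ACM group alone, as its effective length in the deposited tables ran from 2968 to 9041 bases between those libraries. INSR lies on the minus strand at chr19:7112255-7294414.

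IGF1R, the receptor for IGF1 and IGF2, had 66.63, 59.93 and 55.22 CPM in ACM and 60.74, 48.12 and 43.97 CPM in UCM. UCM replicate 1 lay within the ACM range, and the other UCM libraries lay below it. IGF1R had a log2 fold change of 0.25 (SE 0.12, interval -0.03 to 0.53, adjusted p = 0.265 from edgeR). Without UCM replicate 1 it was 0.4 (adjusted p = 0.0232 from edgeR). Without ACM replicate 1, the highest ACM library, it was 0.18 (adjusted p = 0.493 from edgeR). IGF2R showed the same layout, with 454.9, 425.9 and 406.3 CPM in ACM and 469.9, 353.1 and 364 CPM in UCM. Here UCM replicate 1 was the highest library of all. Its log2 fold change was 0.12 (SE 0.11, interval -0.13 to 0.36, adjusted p = 0.572 from edgeR), and 0.27 without UCM replicate 1 (adjusted p = 0.0403). IGF1R lies on the plus strand at chr15:98648539-98964530 and IGF2R on the plus strand at chr6:159969082-160113507.

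IRS1, the adaptor that links both receptors to PI3K, had 55.65, 52.22 and 59.9 CPM in ACM and 41.03, 48.28 and 49.56 CPM in UCM. The groups did not overlap, with a gap from 49.56 to 52.22 CPM. IRS1 had a log2 fold change of 0.27 (SE 0.09, interval 0.07 to 0.48, adjusted p = 0.113 from edgeR). Its unadjusted p of 0.0142 did not survive the correction over all genes. IRS2, its close relative, had 7.747, 12 and 9.24 CPM in ACM and 7.391, 8.28 and 7.813 CPM in UCM. ACM replicate 1 lay within the UCM range and ACM replicate 2 was highest. The log2 fold change of IRS2 was 0.3 (SE 0.18, interval -0.09 to 0.69, adjusted p = 0.343 from edgeR), on 134 to 213 expected counts a library. IRS1 lies on the minus strand at chr2:226731312-226799820. IRS2 lies on the minus strand at chr13:109752695-109786583 and has 1 annotated transcript of 8156 bases.

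**Figure D3:**
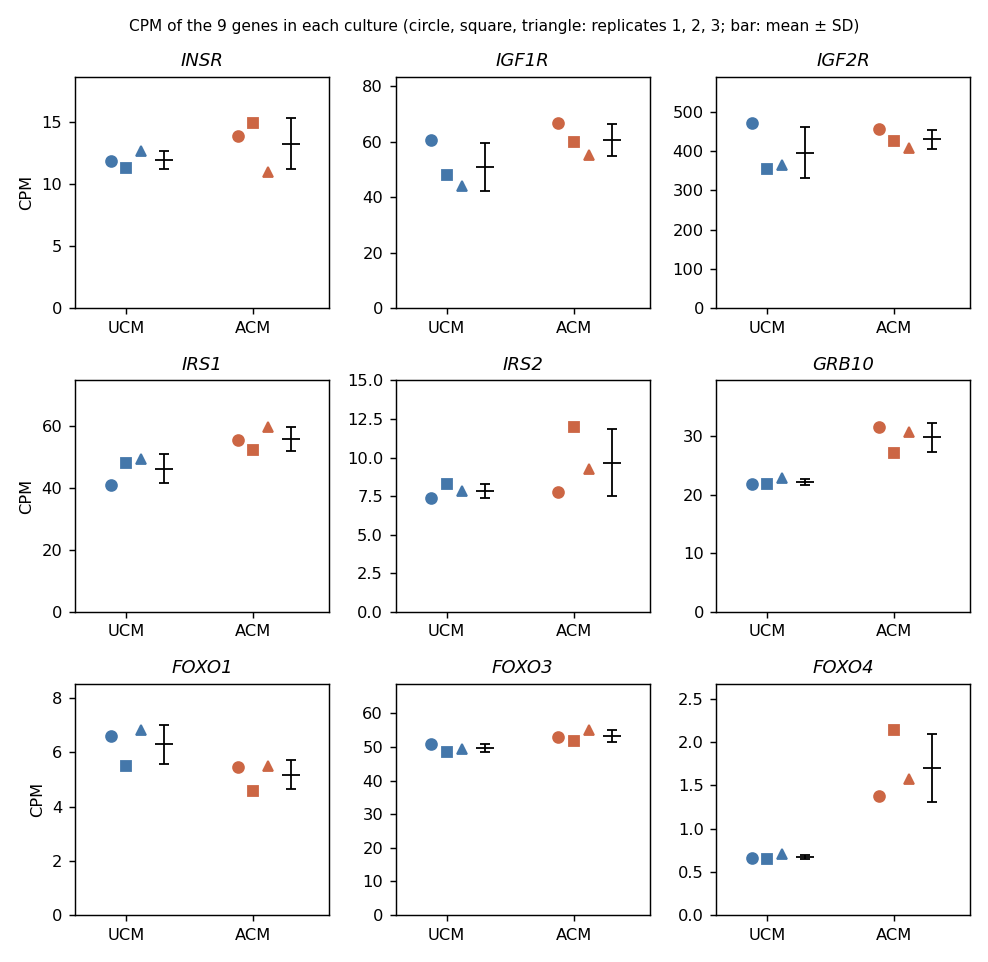
CPM of each member in the 3 ACM and the 3 UCM libraries, one panel a gene with its own axis. The groups did not overlap for IRS1, GRB10, FOXO3 and FOXO4. UCM replicate 1 was the highest UCM library for IGF1R and IGF2R and the lowest for IRS1.

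FOXO4 had the largest fold change of the members and the fewest reads. It had 1.378, 2.14 and 1.576 CPM in ACM and 0.6633, 0.6452 and 0.6997 CPM in UCM. These levels rest on 29, 38 and 29 expected counts in ACM and 14, 12 and 12 in UCM, and every ACM library lay above every UCM library. The log2 fold change of FOXO4 was 1.33, or 2.52-fold (SE 0.35, interval 0.55 to 2.11, adjusted p = 0.0548 from edgeR), so that it missed the threshold of 0.05. FOXO4 was the only member with an unadjusted p of 0.05 or less and a log2 fold change of at least 0.58, the rule used in the study, which 4.12% of all tested genes met in the direction of ACM. On the TPM scale the groups overlapped, at 1.45, 1.51 and 0.68 TPM in ACM and 0.51, 1.09 and 0.47 TPM in UCM. The effective length of FOXO4 differed 4.02-fold between the highest and the lowest library, which moved TPM without moving the counts. The difference was 0.39 on the log2(TPM + 1) scale and 0.74 on the log2(TPM + 0.1) scale from limma, and 0.91 with effective lengths as offsets in edgeR, with adjusted p from 0.364 to 0.375. FOXO4 lies on the plus strand at chrX:71095851-71103532.

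The promoters of the members were searched for the core FOXO site, GTAAACA or TGTTTAC, and for the insulin response element through which FOXO factors act at insulin-repressed genes, CAAAACAA or TTGTTTTG, from 250 bases before to 50 bases after each start annotated by RefSeq on GRCh38.p14. The 9 members had 16 such windows among 35116. The core site occurred in 3.42% of all windows and, of the members, in FOXO4, 24 bases past the start. The insulin response element occurred in 1.68% of all windows and, of the members, in IRS2, 41 bases before the start. Both matches are printed with the motif in capitals, for FOXO4 at chrX:71095863-71095891 on the plus strand and for IRS2 at chr13:109786584-109786664 on the minus strand, because FOXO4 had the largest fold change and IRS2 is a FOXO target itself.
FOXO4: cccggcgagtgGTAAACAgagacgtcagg
IRS2: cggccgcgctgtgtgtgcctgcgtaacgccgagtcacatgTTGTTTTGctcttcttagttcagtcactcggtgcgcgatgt
The match is a description of letters and says nothing of binding. The member windows were rich in G and C, with a median of 76% against 58.7% over all windows.

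FOXO1, the factor best known from the liver's response to fasting, had 5.465, 4.563 and 5.49 CPM in ACM and 6.586, 5.484 and 6.822 CPM in UCM. The groups overlapped narrowly, at 5.484 and 5.49 CPM. Its log2 fold change was -0.28 (SE 0.18, interval -0.67 to 0.11, adjusted p = 0.376 from edgeR). FOXO1 lies on the minus strand at chr13:40555667-40666641, and 22.1% of the 100-base windows of its longest coding transcript also occur in an overlapping gene model on the same strand, ENSG00000288542, so the assignment of reads between them is uncertain. That model held 0 expected counts in every ACM library and 10.05, 0 and 10.4 in the UCM libraries. FOXO1 itself had 115, 81 and 101 in ACM and 139, 102 and 117 in UCM.

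FOXO3 had 53.04, 51.65 and 55.06 CPM in ACM and 50.93, 48.6 and 49.45 CPM in UCM. The groups did not overlap, yet the gap was small and the log2 fold change was 0.1 (SE 0.07, interval -0.06 to 0.26, adjusted p = 0.445 from edgeR). In TPM the ACM libraries were on average the lower ones, at 10.77, 10.2 and 11.33 against 12.08, 11.22 and 11.52 in UCM, with a narrow overlap, and the log2(TPM + 1) difference was -0.1. The direction for FOXO3 thus depended on the scale. Both scales came from the same reads, and they differed by the effective length, the mean length over the transcripts of a gene weighted by how much RSEM assigned to each.

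That length of FOXO3 was 6970, 7008 and 7025 bases in ACM and 6118, 6118 and 6151 bases in UCM. It was 14.2% longer in ACM and the groups were far apart. Lengths on either side without overlap were found for 9.19% of all tested genes, and 4.01% of all tested genes also differed by at least 10% between group means. Among the 9 members, FOXO3 and IGF2R had lengths without overlap, and of these FOXO3 differed by more than 10% while IGF2R was 6.11% longer in ACM. FOXO3 lies on the plus strand at chr6:108559835-108684774 and has 3 annotated transcripts. ENST00000343882.10 (7308 bases) and ENST00000406360.2 (7296 bases) hold 2019 coding bases each. ENST00000540898.1 (2553 bases) starts within the gene at position 108656346, holds 1359 coding bases and ends with a last exon of 925 bases in place of 4948. If all other transcript was one of the long forms, the effective lengths correspond to a share of the short transcript of 0 to 1.24% in ACM and 18.3 to 19.1% in UCM. This share is what RSEM's assignment implies, since transcript tables were not used here. No test was made of it.

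**Figure D4:**
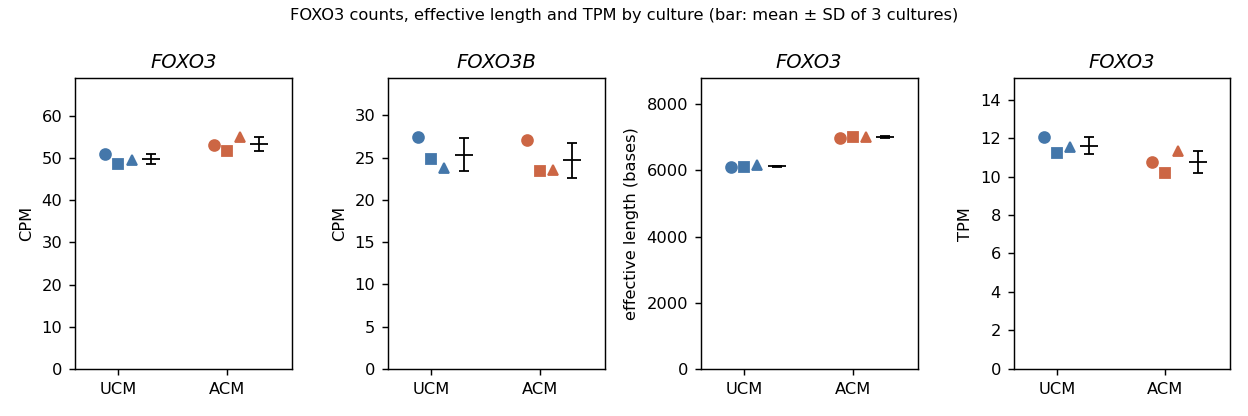
CPM of FOXO3, CPM of its near copy FOXO3B, effective length of FOXO3 in bases and TPM of FOXO3 in each of the 6 libraries, one panel each. In effective length, the ACM libraries lay at 6970 to 7025 bases and the UCM libraries at 6118 to 6151 bases.

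FOXO3 also shares sequence with FOXO3B, a near copy at chr17:18667629-18682314 on the minus strand. Of the 7209 windows of 100 bases in the longest FOXO3 transcript, 1700 (23.6%) occur in FOXO3B. FOXO3B was listed at 27.09, 23.43 and 23.54 CPM in ACM and 27.48, 24.84 and 23.73 CPM in UCM, with a log2 fold change of -0.04 (SE 0.1, adjusted p = 0.866 from edgeR). Reads of the pair cannot be fully told apart. With both counted as 1 gene, a choice made after seeing the data, the log2 fold change was 0.06 (SE 0.07, adjusted p = 0.684 from edgeR).

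Ratios between related members were compared as log2 ratios of CPM by a two-sided exact permutation test, in which 3 libraries against 3 cannot give a p below 0.1. The ratio of FOXO1 to FOXO3 was 0.103, 0.0883 and 0.0997 in ACM and 0.129, 0.113 and 0.138 in UCM. It was lower in every ACM library, by -0.38 on the log2 scale (exact permutation p = 0.1, the smallest possible, and 0.3 after Benjamini-Hochberg adjustment over the 3 ratios). In TPM the difference was -0.19 (exact permutation p = 0.3). The ratio of INSR to IGF1R ran from 0.199 to 0.249 in ACM and from 0.196 to 0.289 in UCM (difference -0.12, exact permutation p = 0.7, adjusted 1), and its difference in TPM was -0.4. The ratio of IRS2 to IRS1 ran from 0.139 to 0.23 in ACM and from 0.158 to 0.18 in UCM (difference 0.01, exact permutation p = 1, adjusted 1). Neither of these separated the media.

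The other genes of the pathway were described in 6 lists holding 109 genes, of which 91 were tested. Of these, 6 rose and 4 fell at an adjusted p of 0.05 or less from edgeR, or 11%, against 5.56% of all tested genes in either direction. Their median log2 fold change was 0.05. Without UCM replicate 2 or without UCM replicate 3, 2 rose and 0 fell. Without ACM replicate 2, 4 rose and 0 fell, and without ACM replicate 1 or 3, 1 fell. Without UCM replicate 1, 9 rose and 7 fell. Of 14 alternative settings, TRIB3 and EIF4EBP1 passed in all 14, CDKN1B in 10, PDK4, BNIP3 and SKP2 in 9, SHC1 and MXI1 in 7, PIK3R3 in 6 and M6PR in 5.

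The ligands had few reads in these cells. INS and the orphan receptor INSRR were at 0 in every library, and IGF1 had 5 counts in ACM and 2 in UCM in all. IGF2 was too low to test. M6PR, which sorts lysosomal enzymes as IGF2R does, fell by 0.27 on the log2 scale (SE 0.07, adjusted p = 0.0474 from edgeR), from 140 ± 6.07 to 116 ± 5.34 CPM (SD).

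Among 18 other adaptors, 14 were tested, with a median of 0.09. At the adjusted p 1 rose and 0 fell, or 7.14%, beside 5.56% of all tested genes in either direction. At an unadjusted p of 0.05 or less 3 were higher and 0 lower. Of all tested genes, 11.9% were higher and 1659 of 14451 lower at that threshold. SHC1, which couples the receptors to RAS, rose from 412 ± 7.06 to 497 ± 26.6 CPM (SD), a log2 fold change of 0.27 (SE 0.07, adjusted p = 0.0428 from edgeR). IRS4 had 1 count in ACM and 4 in UCM. Of 13 brakes on insulin signaling, all tested, 11 (84.6%) had a positive log2 fold change, beside 48.1% of all tested genes. Their median was 0.17. At the adjusted p 1 rose and 0 fell, or 7.69%, beside the same 5.56%. At an unadjusted p of 0.05 or less 3 were higher and 2 lower, beside 23.3% of all tested genes in either direction. TRIB3, a pseudokinase that binds AKT and a target of the ATF4 stress response, rose from 36.6 ± 0.92 to 58.4 ± 8.13 CPM (SD), a log2 fold change of 0.67 (SE 0.1, adjusted p = 0.00611 from edgeR).

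The PI3K, AKT and mTOR genes numbered 27, all tested, with a median of -0.05. At the adjusted p 0 rose and 1 fell, or 3.7%, near the 5.56% of all tested genes in either direction. At an unadjusted p of 0.05 or less 2 were higher and 3 lower, beside 23.3% of all tested genes in either direction. PIK3R3, a regulatory subunit of PI3K, went from 80.1 ± 7.72 to 63.1 ± 2.82 CPM (SD) and fell by 0.34 on the log2 scale (SE 0.08, adjusted p = 0.044 from edgeR).

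**Figure D5:**
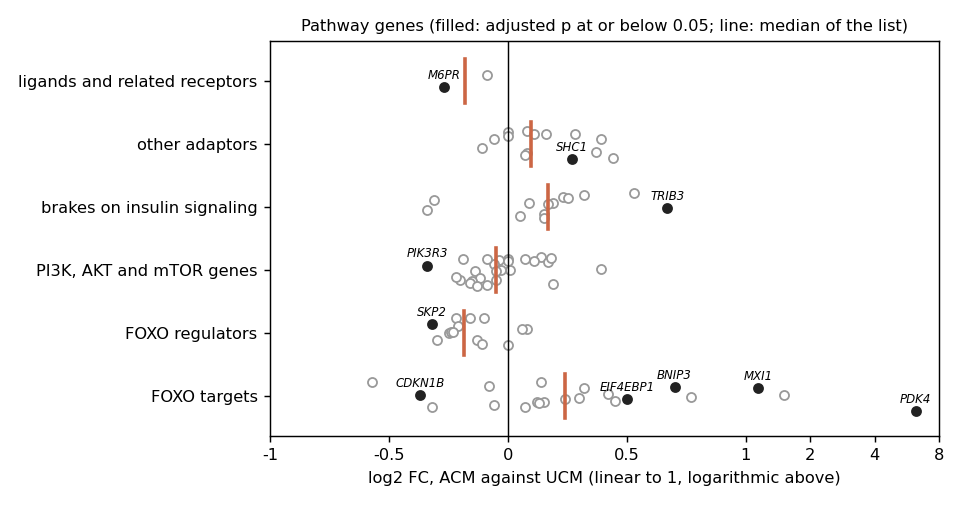
Log2 fold change, ACM against UCM, of the tested genes of each list, one point a gene, with the genes of an adjusted p of 0.05 or less set apart. Medians ran from -0.19 for the FOXO regulators to 0.24 for the FOXO targets.

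The FOXO regulators are the kinases, ligases, deacetylases and 14-3-3 proteins that act on FOXO proteins. Of 14 tested, 12 had a negative log2 fold change, where 7497 of the 14451 tested genes did. The related 14-3-3 genes made up 6 of these 12. The list's median was -0.19, and in 11 every ACM library was below every UCM library, where 15.1% of all tested genes were. At the adjusted p, 0 rose and 1 fell, or 7.14%, beside 5.56% of all tested genes in either direction. At an unadjusted p of 0.05 or less 0 were higher and 8 lower. Of all tested genes, 11.9% were higher and 1659 of 14451 lower at that threshold. SKP2, a ubiquitin ligase subunit that targets FOXO1 and the cell cycle inhibitor CDKN1B, went from 66.2 ± 3.46 to 52.9 ± 3.37 CPM (SD) and fell by 0.32 on the log2 scale (SE 0.08, adjusted p = 0.0428 from edgeR). The 6 genes of the 14-3-3 family in this list, all with YWHA symbols, were singled out after their values were seen. Their log2 fold changes ran from -0.25 to -0.1, all 6 had their ACM libraries below their UCM libraries, 4 had an unadjusted p of 0.05 or less, and 0 passed the adjusted threshold. FOXO6, the remaining FOXO gene, had 4 counts in ACM and 6 in UCM.

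Of 30 known FOXO targets, 21 were tested, and the median was 0.24. At the adjusted p 4 rose and 1 fell, or 23.8%, beside 5.56% of all tested genes in either direction. At an unadjusted p of 0.05 or less 7 were higher and 3 lower. Of all tested genes, 11.9% were higher and 1659 of 14451 lower at that threshold. PDK4, which inhibits pyruvate dehydrogenase and is also a PPAR target, had 212, 929 and 328 expected counts in ACM and 6, 11 and 3 in UCM. All ACM libraries were far higher and they differed widely among themselves. The log2 fold change of PDK4 was 6.22 (SE 1, adjusted p = 0.0335 from edgeR). PDK4 passed the count filter only through its ACM libraries, and it is counted in the 23.8%. EIF4EBP1, a translation repressor that ATF4 also induces, rose from 209 ± 3.65 to 296 ± 18.4 CPM (SD), a log2 fold change of 0.5 (SE 0.07, adjusted p = 0.00401 from edgeR). BNIP3, a mitochondrial receptor for autophagy, and MXI1, an antagonist of MYC, are both also induced by hypoxia. BNIP3 rose by 0.7 on the log2 scale (SE 0.16, adjusted p = 0.0424 from edgeR) and MXI1 by 1.14 (SE 0.29, adjusted p = 0.0497 from edgeR). CDKN1B went the other way, from 87.1 ± 3.62 to 67.5 ± 4.05 CPM (SD), and fell by 0.37 on the log2 scale (SE 0.07, adjusted p = 0.0203 from edgeR). The classical targets of the liver, PCK1 and G6PC1, and the death ligands TNFSF10 and FASLG were at 0 in every library. The targets that passed went in both directions, and INSR and IRS2, FOXO targets among the members, did not pass. Whether FOXO activity differed between the media was not tested.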

How the data were processed

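PolyA RNA of BT-549 cells (3 ACM and 3 UCM cultures) was sequenced in paired ends. The authors used Trim Galore to trim, STAR to align to GRCh38 and RSEM to quantify genes (versions not given in the sources used here). The deposited tables hold 1 library each. The deposited expected counts are not scaled, and the deposited TPM values are divided by effective length and scaled to the same total in each library by the authors. A further deposited table holds the authors' own fold changes and p-values and was not used.

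Symbols were taken from the gene identifiers (62541 of 63140 matched). Expected counts were rounded and tested with edgeR 4.0.16 (R 4.3.3): filterByExpr, TMM factors, robust quasi-likelihood F test of ACM against UCM without covariates, and Benjamini-Hochberg adjustment over 14451 genes. The common biological coefficient of variation was 0.115. CPM used the same factors. The procedure was tested on simulated data. Alternatives were DESeq2 1.42.0, RLE factors, other count filters, limma 3.58.1 (limma-trend) on log2(TPM + 1) and log2(TPM + 0.1), effective lengths as offsets, a replicate block, and each library left out.

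The members and lists were chosen with earlier results of these data known. Named genes were all members, their paralogs INSRR, IRS4 and FOXO6, up to 5 genes of each list with the smallest adjusted p at or below 0.05, list genes at 0 in every library, and the 3 nearest profiles of a called member. IGF1, IGF2, CFD, CD68, PTPRC, EPCAM and the 14-3-3 genes fall outside that rule and were named after their values were seen.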

Additional observations from a re-analysis of the deposited data

How the results depend on the processing

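GRB10 kept its direction under all 14 alternatives (adjusted p 0.0042 to 0.207). Its log2 fold change was 0.36 on log2(TPM + 1), 0.39 on log2(TPM + 0.1) and 0.43 with effective lengths as offsets, past the threshold in none of these, and 0.39 to 0.49 with a library left out. FOXO4 passed with every gene of at least 1 count (1.34), with at least 10 counts in every library (1.34) and with the replicate block (1.31), fell to 0.39 on log2(TPM + 1), 0.74 on log2(TPM + 0.1) and 0.91 with offsets, past the threshold in none of these, and ran from 1.13 to 1.47 with a library left out. IRS1 passed with every gene of at least 1 count (0.28), and IGF1R with the block (0.26). With a library left out the ranges were 0.06 to 0.27 for INSR, 0.16 to 0.4 for IGF1R, 0.04 to 0.27 for IGF2R, 0.2 to 0.34 for IRS1, 0.12 to 0.45 for IRS2, -0.37 to -0.2 for FOXO1 and 0.07 to 0.13 for FOXO3. INSR reversed to -0.01 and -0.02 and FOXO3 to -0.1 and -0.11 on log2(TPM + 1) and log2(TPM + 0.1), and FOXO3 to -0.08 with length offsets. Members called higher were 3 with every gene of at least 1 count, 2 with at least 10 counts, 0 on either TPM scale or with offsets, 3 with the block, and 0 to 3 with a library left out. Pathway genes called higher were 11 with every gene, 10 with the block and 2 to 9 with a library left out. Those called lower were 7, 10 and 0 to 7, and 2 on either TPM scale or with offsets. With a library left out, the log2 ratio of INSR to IGF1R differed by -0.26 to 0.02 (-0.4 in TPM), that of IRS2 to IRS1 by -0.21 to 0.15 (-0.03 in TPM), and that of FOXO1 to FOXO3 by -0.46 to -0.32 (-0.19 in TPM). Causes were not tested unless the setting itself tests fewer genes or libraries.

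Over all genes, 484 were called higher and 320 lower, against 726 and 420 with DESeq2, 1045 and 679 with every gene of at least 1 count, 210 and 121 on log2(TPM + 1), 221 and 128 on log2(TPM + 0.1), 272 and 134 with offsets, 909 and 703 with the block, and 125 to 738 and 62 to 572 with a library left out. Same-numbered replicates deviated together with correlations of 0.318, 0.0347 and 0.177, and 4 of 6 libraries correlated best with their own number. The labels do not state a pairing, and the main test used none. Whether the numbers pair the cultures was not settled. The replicate block, which takes them as pairs, stands only here. FOXO4, at 12 to 38 counts a library, is the member that depth limits most.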

Other observations

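IGF2, the ligand shared by IGF1R and IGF2R, had 10, 44 and 7 expected counts in the ACM libraries and 6, 5 and 2 in the UCM libraries. The ACM total of 61 against 13 in UCM came mostly from ACM replicate 2, and the gene was left out of the test by its low counts. When every gene with at least 1 count was tested, its log2 fold change was 2.25 (SE 0.61, adjusted p = 0.00622 from edgeR).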
